A study of Mus musculus with 30 samples.

Results

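Neocortex of Tbr1 homozygous null (KO) and wild-type (WT) mouse embryos at embryonic stage E14.5 was compared across 18194 genes on 6 of the 30 microarrays of the study. The genes were all those named by at least 1 probe set that stands for a single gene, and each was read from its brightest probe set, by mean signal at E14.5. Of 45101 probe sets, 34958 named 1 gene. There were 3 KO arrays (genotype Tbr1 -/-) and 3 WT arrays. All animals were of the CD1 strain, and null embryos came from crosses of heterozygous males with heterozygous females. The null allele came through the germline and was not limited to cortical neurons, and the labels do not say which part of Tbr1 was deleted. The other 24 arrays measured frontal, parietal and occipital tissue of the same 2 genotypes at postnatal day 0.5 (P0.5), and they are used only to set values side by side. The labels do not say whether arrays of a group came from separate embryos or litters, so the tests measure only the spread between these samples.

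Tbr1 is a T-box transcription factor that is switched on when newborn excitatory neurons of the cortex leave the cell cycle. At mid-gestation it is found in the preplate, the first layer of neurons, which splits into the subplate below and the Cajal-Retzius cells above, and in the layer 6 neurons that are born next and send axons to the thalamus. Mice without it are known for disordered layers, low reelin and misrouted corticothalamic axons. At this stage the proliferating radial glia and the intermediate progenitors, which express the related gene Eomes, lie below the young neurons.

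Values are log2 signals as deposited, so a difference of 1 is a doubling of the signal, and array values are given in the order of replicates 1, 2 and 3. Tbr1, the targeted gene, read 8.69, 7.23 and 7.57 in KO and 9.36, 8.89 and 9.11 in WT. All 3 KO arrays lay below all 3 WT arrays, and KO replicate 1 lay closest to WT. The difference was -1.29 (SE 0.368, n = 3 and 3), a 2.45-fold lower signal, with a limma adjusted p of 0.85 over all genes. Without KO replicate 1 it was -1.72, at a limma adjusted p of 0.28. A single probe set reads the gene and may lie outside the deleted part, so a residual signal does not measure functional transcript. The direction in each array thus matched the labels, without passing the threshold. Of the nearest 4 protein-coding genes on each side of Tbr1, all 8 had overlapping groups. Among all genes, 7.43% were higher and 3.74% lower without overlap. The largest difference of the 8 was -0.68 for Psmd14, a proteasome subunit, which was low in KO replicate 1 (7.54).

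No gene passed an adjusted p of 0.05 (0 of 18194, 0%), and the lowest adjusted p was 0.85. At an unadjusted p under 0.05 there were 1048 genes, of which 604 were higher (3.32% of all genes) and 444 lower (2.44%) in KO. The lowest KO value exceeded the highest WT value for 1352 genes (7.43%), and the reverse held for 680 (3.74%). With each array's median subtracted the split moved to 435 higher and 511 lower at that p, and to 923 and 769 genes without overlap. Full separation of 3 against 3 arrays has an exact two-sided p of 0.1 for a single gene. The count of genes without overlap is thus not a count of genes that differ by genotype. Among the 122 genes at least 2-fold higher, 87 had groups that did not overlap, against 108 of the 189 genes at least 2-fold lower. With replicates 1 of both genotypes left out and the replicate number as a block, 185 genes were called (111 higher and 74 lower), Tbr1 among them, in a fit with 1 residual degree of freedom. Calls from this paired fit are given beside the named genes whose groups overlap over all 6 arrays. The labels do not pair the arrays, and the pairing was taken from these same values. These calls are thus a description and not independent support. The median difference over all genes was 0.0564, and 65.5% of genes had a higher mean in KO. The median SE of a difference was 0.169, above the median absolute difference of 0.114.

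KO replicate 1 stood apart from the other 5 arrays. The first principal component held 53.8% of the variance and placed it at -64.2, with the others between 7.47 and 17.1. It was the lowest array by more than 1 in 598 genes, against 0 to 44 genes for any other array, and the highest by more than 1 in 70. The median SD over genes was 0.211 in KO and 0.132 in WT, and 0.106 between KO replicates 2 and 3 alone. The last is from 2 values per gene, whose median SD runs lower than that of 3 values, so it cannot be set against the others. KO replicate 1 was also the KO array farthest from WT in 799 of the 1352 genes with KO above WT and in 474 of the 680 with KO below. The log2 3' minus 5' signal of the Actb control was 0.53 on that array and 0.41 to 0.52 on the others, and that of the transferrin receptor control was 0.36 and 0.42 to 0.65. The poly-A spike-in transcripts averaged 6.60 on that array and 5.70 to 6.25 on the others. The part of these in the results was not tested. Xist, which marks cells with 2 X chromosomes, read 9.58, 10.17 and 5.07 in KO and 5.01, 10.76 and 5.41 in WT, so the sexes were mixed within both groups.

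**Figure D1:**
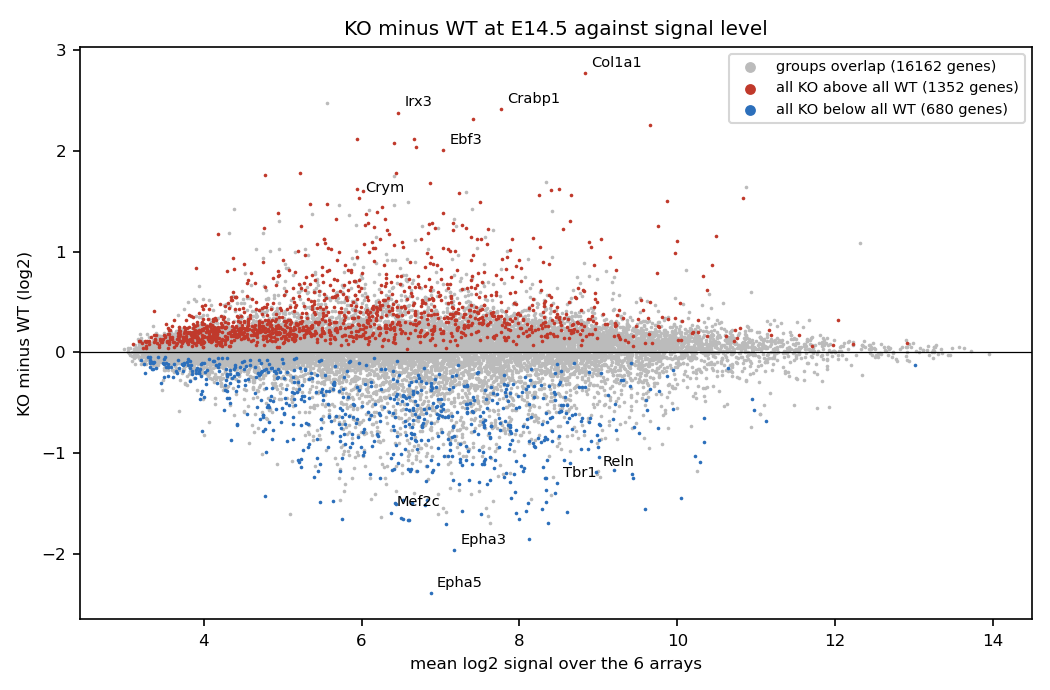
KO minus WT difference (log2) of each of 18194 genes against its mean log2 signal over the 6 E14.5 arrays. Red points are the 1352 genes with all KO arrays above all WT arrays, blue points the 680 with all KO arrays below, and grey points overlap, and large differences both ways lie at middle signal levels.

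The cell types expected of the tissue were present in both groups. Eomes, the marker of intermediate progenitors, read 10.21, 10.73 and 10.81 in KO and 10.98, 10.69 and 10.78 in WT, and the radial glia list averaged between 8.67 and 9.47 in every array. Genes of other tissues were also seen. Gbx2, a transcription factor of the developing thalamus, read 4.14, 3.61 and 7.54 in KO and 3.59, 3.61 and 3.82 in WT, and Shox2, also found in the thalamus and chosen after its values were seen, read 4.24, 3.89 and 6.61 in KO and 3.60, 3.67 and 3.92 in WT. Both were high in KO replicate 3 alone, as was Tcf7l2 (8.88 there and 5.82 to 5.97 elsewhere). Sst, the somatostatin gene of interneurons, read 9.71, 6.01 and 9.02 in KO and 8.35, 9.05 and 9.28 in WT. Lhx6, needed for interneurons born in the ventral forebrain, read 4.62 in KO replicate 2 and 6.0 to 7.98 elsewhere. In the paired fit without replicates 1, which keeps KO replicate 2, Lhx6 was called at -1.02. The part of neighbouring tissue in the results was not tested.

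The largest positive differences were led by genes of connective tissue and the brain coverings. Col1a1, a chain of fibrillar collagen I, read 11.44, 11.10 and 8.09 in KO and 7.21, 7.50 and 7.61 in WT. The groups did not overlap, but KO replicate 3 lay near WT and the other 2 KO arrays far above it. The difference was 2.77 (SE 0.798, 6.82-fold). Col1a2, the other chain of collagen I, read 11.37, 11.64 and 9.32 in KO and 8.51, 8.50 and 8.56 in WT and differed by 2.25 (SE 0.554). The same order of arrays, with KO replicate 3 lowest of the KO group, held for both. Other matrix genes among the 15 largest were Pcolce, an enhancer of procollagen processing (2.03), the matrix protease Mmp2 (1.68), Col6a2 (1.61), Col26a1 (1.58) and Col5a2 (1.56). Gjb2, a gap junction protein, differed by 1.78, S1pr3, a receptor for sphingosine 1-phosphate, by 2.32 and Gsn, which severs actin filaments, by 2.11.

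A list of meninges and fibroblast markers, which holds Col1a1 and Col1a2 themselves, was also higher. All 10 of 10 listed genes were higher in KO, with a median difference of 0.83 against 0.06 over all genes, and 5 had groups that did not overlap (7.43% of all genes). Without KO replicate 2 the median was 0.41. The mean log2 signal of the list was 7.87, 8.42 and 7.22 in KO and 6.76, 6.72 and 6.89 in WT. Their summed linear signal was 4.29, 5.55 and 1.53 times the WT mean in KO and 0.945 to 1.07 times in WT. Without the collagen I genes, 8 of 8 were higher with a median of 0.69, 3 of them without overlap, and the summed signal was 2.41, 4.10 and 1.48 times the WT mean in KO and 0.945 to 1.08 times in WT. The dimmest of them, Ogn, read between 4.01 and 4.39, and Foxd1, a transcription factor of the meninges, read 5.44, 5.83 and 5.51 in KO and 4.91, 4.88 and 5.13 in WT. Col3a1 differed by 1.53 (SE 0.372) and Dcn, the matrix proteoglycan decorin, by 0.89 (SE 0.232). In tissue RNA more cells of a type cannot be told apart from more RNA per cell. Without KO replicate 3, the KO array with the least of these markers, 30 genes were called, all higher, among them Twist1, a factor of mesenchyme named after its values were seen (2.46), Col1a1 (3.83), Col1a2 (2.98), Pcolce (2.80), Aqp1 (2.68), Irx3 (2.81) and Ccn2 (1.75).

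With the mean of this list as a covariate, a fit added after seeing the data, the difference was 0.10 (SE 0.868) for Col1a1, which is itself in the list, and -0.00, -0.13, -0.04 and -0.22 for Pcolce, Gjb2, Col26a1 and Col5a2. It was 0.66 (SE 0.325) for Ccn2, -0.52 (SE 0.522) for Reln and -0.38 (SE 0.428) for Bcl11b, each smaller in size than without the covariate. Irx3, Ebf3, Crym and Tbr1 stood at 1.43, 1.89, 1.98 and -1.08 in that fit, with an SE of 0.555 for Irx3 and 0.706 for Tbr1. No gene was called in that fit. The covariate itself differed between the genotypes, so what it removed and the genotype cannot be told apart.

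Other large positive differences were in patterning genes and signals. Irx3, a homeodomain transcription factor of early patterning, read 8.32, 7.85 and 6.78 in KO and 5.09, 5.44 and 5.29 in WT, a difference of 2.38 (SE 0.368). KO replicate 3 was again lowest of the KO group, but lay more than 1 above every WT array. Crabp1, which binds retinoic acid in the cytoplasm, read 10.01, 9.17 and 7.72 in KO and 6.32, 6.60 and 6.74 in WT (difference 2.41, SE 0.52). Rspo1, a secreted enhancer of Wnt signalling, read 7.08, 8.39 and 6.88 in KO and 4.39, 6.11 and 5.63 in WT (difference 2.07, SE 0.527). Fgf15, a fibroblast growth factor of the embryonic forebrain, read 7.40, 6.91 and 6.62 in KO and 5.23, 5.71 and 5.66 in WT (difference 1.44, SE 0.239). These 4 had groups that did not overlap. Among the genes with the smallest p with or without the replicate number in the fit, Wif1, a secreted Wnt inhibitor (0.84, SE 0.12), Wnt9a (0.96, SE 0.162), Col23a1 (0.76, SE 0.127), Id3, an inhibitor of helix-loop-helix factors (1.31, SE 0.245), and Clybl, a mitochondrial enzyme (1.08, SE 0.235), were also higher in all 3 KO arrays. Ppil6 differed by only 0.32 (SE 0.0551) at signals of 3.43 to 3.84, near the bottom of the scale. Gsta4, a glutathione transferase, and Crabp2, a second binder of retinoic acid, differed by 1.21 (SE 0.408) and 1.40 (SE 0.674). Crabp2 read 8.24, 10.19 and 8.89 in KO and 6.67, 9.02 and 7.43 in WT, highest in replicate 2 of both genotypes, and the groups overlapped although each KO array exceeded the WT array of its number. In the paired fit without replicates 1 it was called (1.31, limma adjusted p = 0.00297).

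Ebf3 and Zic genes had another pattern over the arrays. Ebf3, a transcription factor of Cajal-Retzius cells, read 7.07, 8.63 and 8.40 in KO and 6.01, 6.10 and 5.98 in WT, a difference of 2.00 (SE 0.386). All KO arrays lay above WT, and KO replicate 1 was the lowest of them. Zic4 read 5.84, 7.20 and 7.42 in KO and 5.10, 5.27 and 5.29 in WT (difference 1.60, SE 0.384), and Zic1 read 9.47, 10.97 and 10.69 in KO and 8.88, 9.16 and 9.33 in WT (difference 1.25, SE 0.375). Both are zinc finger factors of the dorsal midline and of the cells that make Cajal-Retzius neurons and meninges, and both were named here after their values were seen. Without KO replicate 1, 2 genes were called, and these were Ebf3 (2.49, limma adjusted p = 0.0144) and Zic4 (2.09, limma adjusted p = 0.0149). With arrays weighted by their quality the same 2 genes were called. The weights came from these same values and were 0.179 for KO replicate 1 and 4.14 for KO replicate 3. The weighted fit is thus not independent of the fit without KO replicate 1. Otx2, which is active in the choroid plexus and the cortical hem, read 4.72, 6.38 and 7.07 in KO and 4.05, 4.75 and 5.26 in WT, with overlapping groups. In the paired fit without replicates 1 it was called (1.73, limma adjusted p = 0.000102). In the choroid plexus list 5 of 6 genes were higher, with a median of 0.94. Aqp1, a water channel of that tissue, read 7.46, 7.68 and 5.87 in KO and 4.63, 4.93 and 5.11 in WT, and Ttr, its most abundant transcript, ranged from 9.98 in WT replicate 1 to 13.29 in KO replicate 3, with overlapping groups.

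The largest negative differences were led by the guidance receptors Epha5 and Epha3 and the neuronal gene Elavl2. The others were of mixed functions. In every gene given here KO replicate 1 was the lowest array. Epha5, a receptor for ephrin-A ligands on growing axons, read 4.30, 6.40 and 6.34 in KO and 8.59, 8.25 and 7.35 in WT. All KO arrays lay below WT, with KO replicate 1 lowest. The difference was -2.38 (SE 0.591, 5.22-fold), and -1.69 without that array. Epha3, a related receptor, read 5.07, 6.72 and 6.80 in KO and 8.72, 8.13 and 7.61 in WT (difference -1.96, SE 0.496). Elavl2, a neuronal RNA-binding protein, read 5.70, 8.09 and 7.82 in KO and 9.72, 9.17 and 8.27 in WT (difference -1.85, SE 0.651). KO replicate 1 was the lowest array in each of the 3 genes. It was lowest as well for Cpeb4 (-1.70), a regulator of translation, Trim2 (-1.69), a ubiquitin ligase, the transcription factor Zbtb33 (-1.67), the cohesin release factor Wapl (-1.66), the cannabinoid receptor Cnr1 (-1.65), C230091D08Rik (-1.64), Atad2b (-1.60), Mbtd1 (-1.59), the noncoding Snhg14 (-1.58) and Map2 (-1.57). Of these genes Mbtd1 moved most with that array, and it read 4.99, 8.46 and 8.05 in KO and 9.02, 8.70 and 8.54 in WT and differed by -0.50 without it.

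Mef2c and Zeb2 kept differences beyond 1.5 on the log2 scale without KO replicate 1. Mef2c, a transcription factor of young cortical neurons, read 5.80, 5.01 and 5.91 in KO and 7.47, 6.55 and 7.46 in WT. The difference was -1.59 (SE 0.335), and -1.70 without KO replicate 1. Zeb2, a transcription factor of postmitotic cortical neurons and migrating interneurons, read 5.60, 5.49 and 5.99 in KO and 8.23, 6.77 and 7.05 in WT (difference -1.65, SE 0.373), and -1.61 without that array. The groups did not overlap for either gene. All 5 probe sets of Mef2c (-1.59 to -0.58) and all 5 of Zeb2 (-1.65 to -0.46) were lower in KO. Kcnq3, a potassium channel subunit, read 6.53, 6.15 and 6.90 in KO and 8.09, 7.27 and 8.03 in WT (difference -1.27, SE 0.291). Syt4, a synaptotagmin of secretory vesicles (-0.77, SE 0.136), and Rasa2, a Ras inhibitor (-0.83, SE 0.152), were among the genes with the smallest p, again with no overlap.

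**Figure D2:**
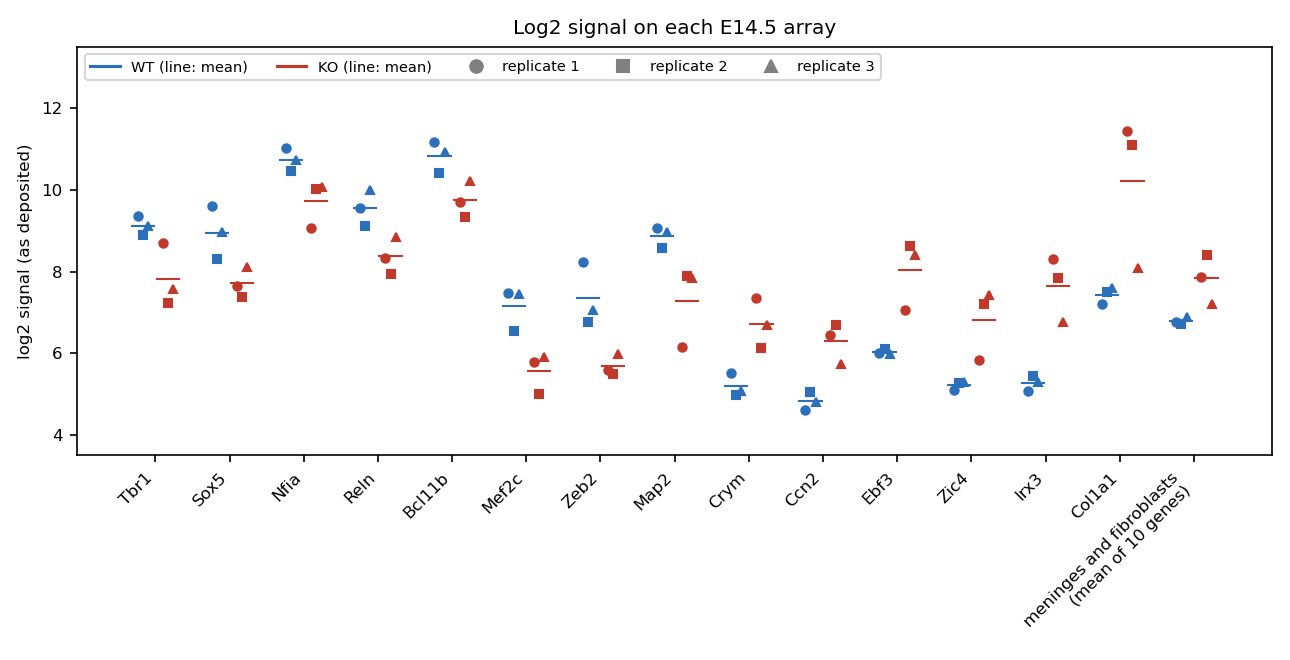
Log2 signal (vertical axis) on each E14.5 array for 14 genes and for the mean of the 10 meninges and fibroblast genes, WT in blue and KO in red, with a symbol per replicate number and a line at each group's mean. KO replicate 1 is the KO array closest to WT for Tbr1 (8.69) and Ebf3 (7.07), and KO replicate 3 is closest for Col1a1 (8.09) and Irx3 (6.78).

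Promoter sequences were searched for the T-box half-site, the short DNA word bound by this protein family. RefSeq windows (GRCm38.p6) of 250 bases before the start site were used, and 33 of 46 genes with the largest differences or the smallest p, Tbr1 included, had 53 such windows. The 8-letter word AGGTGTGA was in 0 of these windows on either strand and in 1.12% of all 32851 windows. The 7-letter word GGTGTGA, which lies within it, was also in 0, against 3.33% of all windows. The 6-letter core GGTGTG, which lies within both, was in 11 windows (20.8%) of 9 genes, against 16.3% of all windows. The 4 genes with lower signal in KO that hold the core are shown, 5′ to 3′ along the gene, with the core in capitals. They lie at chr13:83523415-83523472 on the plus strand for Mef2c, at chr2:45113385-45113442 on the minus strand for Zeb2, at chr5:84417495-84417552 on the minus strand for Epha5 and at chr3:84259782-84259839 on the minus strand for Trim2.
Mef2c: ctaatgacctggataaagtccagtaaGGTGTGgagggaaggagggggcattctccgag
Zeb2: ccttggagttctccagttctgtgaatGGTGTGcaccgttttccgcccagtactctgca
Epha5: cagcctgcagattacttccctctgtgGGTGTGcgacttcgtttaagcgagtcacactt
Trim2: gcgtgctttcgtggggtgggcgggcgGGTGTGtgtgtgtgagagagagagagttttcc
A match of these letters is a description of the sequence and does not show binding.

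Probe sets of 1 gene often differed. Of 9012 genes with 2 or more probe sets, 4278 (47.5%) had differences of both signs. The share was 32.7% (195 of 597) among genes at an unadjusted p under 0.05 and 29% (40 of 138) among genes at least 2-fold different with groups apart. In the last group the median range between the lowest and the highest probe set was 1.14, against a median absolute difference of 1.20 for the probe set used. Col1a2, with 3 probe sets, ranged from 0.08 to 2.86, and Gsn, with 6, from 0.05 to 2.11. The 3 probe sets of Ebf3 lay close together, from 2.00 to 2.73. Epha5, with 4, ranged from -2.38 to -0.15 and Elavl2, with 5, from -1.85 to -0.00. In each of the 15 genes with the largest negative differences the probe set used was also the most negative one, and the genes were ranked by it. Epha3, Wapl and Col26a1 had probe sets of both signs, from -1.96 to 0.14, from -1.66 to 0.12 and from -0.06 to 1.58.

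**Figure D3:**
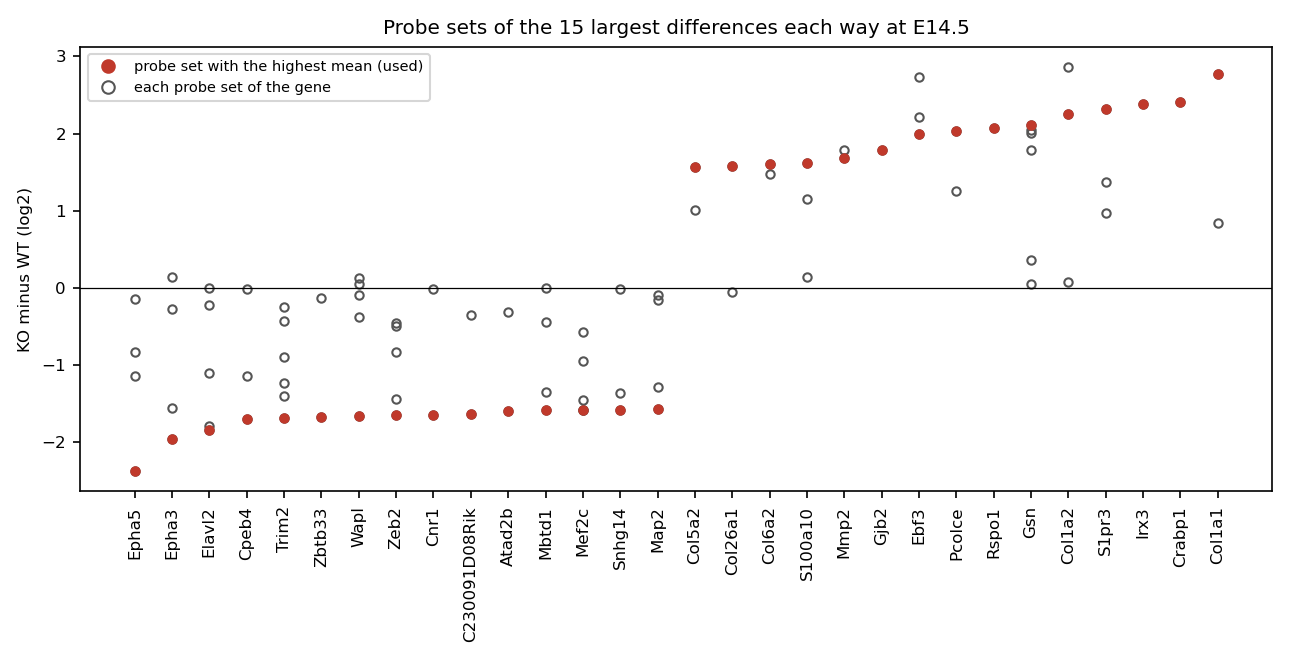
KO minus WT difference (log2, vertical axis) of every probe set of the 15 largest negative and the 15 largest positive named differences at E14.5. Filled red points are the probe sets used and open circles all probe sets of the gene, and for most negative genes with several probe sets the others lie closer to 0 than the one used.

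The layer 6 list held 12 genes, Tbr1 included, of which 8 were lower and 4 higher in KO, with a median of -0.20 against 0.06 for all genes. At an unadjusted p under 0.05, 3 were lower (2.44% of all genes) and 1 higher (3.32%). The median was -0.49 without KO replicate 1 and -0.13 without KO replicate 2, and it turned to 0.12 with the meninges and fibroblast mean as covariate. Sox5, which sets the timing of deep-layer neuron subtypes, read 7.65, 7.39 and 8.12 in KO and 9.60, 8.31 and 8.96 in WT, a difference of -1.24 (SE 0.349). Nfia, a nuclear factor of glia and deep-layer neurons, read 9.06, 10.02 and 10.08 in KO and 11.03, 10.46 and 10.73 in WT (difference -1.02, SE 0.297). Neither had overlapping groups, and all 7 probe sets of Sox5 and all 6 of Nfia were lower. Crym, which binds thyroid hormone, went the other way at 7.36, 6.12 and 6.70 in KO and 5.51, 4.99 and 5.09 in WT, a difference of 1.53 (SE 0.312). Hs3st4, a heparan sulfate sulfotransferase, differed by -0.79 (SE 0.447) and Grik3, a kainate receptor subunit, by -0.81 (SE 0.614), with overlapping groups. Ntsr1, Foxp2, Bcl11a, Tle4, Zfpm2 and Syt6 lay between -0.24 and 0.12 with overlapping groups in the probe sets used. The 7 probe sets of Bcl11a ranged from -1.14 to 0.13, and the lowest had all KO arrays (up to 7.37) below all WT arrays (from 7.44).

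The subplate list had 9 of 10 genes higher (65.5% of all genes), with a median of 0.21, and Ccn2 alone passed an unadjusted p of 0.05. Ccn2, the secreted matrix protein CTGF that marks the subplate, read 6.45, 6.70 and 5.74 in KO and 4.61, 5.05 and 4.81 in WT. Every KO array lay above every WT array, by 1.47 in the mean (SE 0.256, 2.77-fold). Ccn2 is also expressed in fibroblasts, whose markers were higher on the same arrays. The part of fibroblasts in the Ccn2 difference was not tested. Tmem163, a zinc transporter, differed by 0.52 (SE 0.234), and Nxph4, a neurexophilin of subplate neurons, by 0.35 (SE 0.195). Svil, Moxd1, Cplx3, Inpp4b, Nr4a2, Unc5c and Lpar1 lay between -0.06 and 0.37, all but Inpp4b with overlapping groups. Inpp4b was higher by only 0.11, at signals of 3.68 to 3.90 near the bottom of the scale. With Ccn2 it made 2 of 10 genes higher without overlap (7.43% of all genes).

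Cajal-Retzius markers did not share a direction. Reln, the secreted signal these cells give to migrating neurons, read 8.33, 7.95 and 8.86 in KO and 9.57, 9.11 and 10.01 in WT. All KO arrays lay below all WT arrays, and the difference was -1.18 (SE 0.31, 2.27-fold lower). Its second probe set differed by -0.07. Calb2, the calcium-binding calretinin, read 7.35, 6.99 and 7.18 in KO and 7.62, 7.39 and 7.48 in WT (difference -0.32, SE 0.175), also without overlap. Lhx5, a LIM homeodomain factor, was higher by 0.22 (SE 0.0829) at signals of only 4.24 to 4.57. Beside these and Ebf3, the genes Nhlh2, Lhx1, Ndnf, Ebf2 and Trp73 lay between -0.08 and 0.45 with overlapping groups, and Nhlh2 was called at 0.97 in the paired fit without replicates 1. Of the 9 genes 6 were higher, and the median was 0.16, against 0.02 without KO replicate 2 and -0.18 with the meninges and fibroblast mean as covariate.

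The layer 5 list was split as well, with 4 of 10 genes higher and a median of -0.03. Bcl11b, also called Ctip2, a transcription factor of neurons that project below the cortex, read 9.71, 9.33 and 10.21 in KO and 11.17, 10.41 and 10.92 in WT. KO lay below WT in every array, by -1.08 (SE 0.277), and its 4 probe sets ranged from -1.19 to -0.81. S100a10, a partner of annexin, read 9.83, 9.47 and 8.63 in KO and 8.21, 6.84 and 8.03 in WT (difference 1.62, SE 0.435), and is also made outside neurons. Fezf2, the selector gene of layer 5 output neurons, read 10.01, 9.75 and 9.77 in KO and 10.50, 9.93 and 9.89 in WT (difference -0.26, SE 0.203), with overlapping groups. Pcp4 and Nefm, a calmodulin-binding protein and a neurofilament subunit, differed by 0.64 (SE 0.331) and 0.88 (SE 0.489), also with overlap. Lmo4, Diaph3, Cntn6, Crim1 and Ldb2 lay between -0.26 and 0.16.

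Of 12 genes tied to Tbr1 in earlier work, Reln and Bcl11b were the 2 whose groups did not overlap. Both were lower, as were 3.74% of all genes without overlap. The other 10 overlapped, from Gad2 at -0.44 (SE 0.283) to Rac3 at 0.48 (SE 0.366). Auts2, a gene of neurite growth often named as a Tbr1 target, read 10.65, 10.30 and 10.83 in KO and 10.88, 10.43 and 10.61 in WT (difference -0.05, SE 0.189). Its 5 probe sets ranged from -0.70 to 0.09, 4 of them lower, and the lowest read 5.46, 5.80 and 6.23 in KO and 6.72, 6.31 and 6.57 in WT, without overlap. Grin2b, an NMDA receptor subunit, differed by 0.24 (SE 0.165), with probe sets from -0.50 to 0.24. Ntng1, Kcnd2, Nr4a2, Cdh8, Cntnap2 and Fezf2 lay between -0.26 and 0.29.

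Genes of early neuronal differentiation were lower in KO in 11 of 11 cases, with a median of -0.53. Dcx, the microtubule protein doublecortin of migrating neurons, read 8.43, 9.47 and 10.06 in KO and 11.17, 10.26 and 10.86 in WT (difference -1.45, SE 0.42). Map2, a microtubule protein of dendrites, read 6.15, 7.89 and 7.84 in KO and 9.06, 8.57 and 8.96 in WT (difference -1.57, SE 0.459). Neurod6, a helix-loop-helix factor of young pyramidal neurons, read 8.44, 8.02 and 8.70 in KO and 9.99, 8.71 and 9.35 in WT (difference -0.96, SE 0.339), and Elavl4, a neuronal RNA-binding protein, read 6.31, 7.04 and 7.22 in KO and 8.26, 7.43 and 7.83 in WT (difference -0.98, SE 0.308). These 4 did not overlap, against 3.74% of all genes lower without overlap. Tubb3 and Stmn2, the neuronal tubulin and stathmin, differed by -0.09 and -0.14 with overlap, and Neurod1 by -0.12. Without KO replicate 1 the median of the list was -0.71, and without KO replicate 2 it was -0.21. KO replicate 2 had the lowest mean of the list (8.81) and the highest of the meninges list. With the meninges and fibroblast mean as covariate the median of the list was 0.11. That covariate differed between the genotypes, so its part and that of the genotype cannot be told apart.

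Progenitor genes showed differences of both signs. For comparison with the counts below, 7.43% of all genes were higher and 3.74% lower without overlap. The 12 intermediate progenitor genes had a median of 0.01. Nhlh1, a helix-loop-helix factor of newborn neurons, read 8.34, 8.29 and 8.11 in KO and 7.77, 7.85 and 7.32 in WT (difference 0.60, SE 0.202), the only one without overlap. Sstr2, a somatostatin receptor, Eomes, Tac2, Neurod4, Btg2, Gadd45g, Mfng, Hes6, Neurog2, Neurog1 and Insm1 lay between -0.42 and 0.12. Of 12 radial glia genes, Vim, the intermediate filament vimentin, was higher without overlap (0.32, SE 0.114) and Ptprz1, a receptor phosphatase, lower (-0.55, SE 0.284). Nes and Emx2 overlapped, at -0.41 (SE 0.209) and 0.49 (SE 0.32). None of 13 cell division genes had groups apart, and Mki67, a marker of cycling cells, read 6.28, 8.58 and 6.65 in KO and 8.57, 8.17 and 6.90 in WT, lowest in replicate 1 of KO and spread widely in both groups.

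Axon guidance genes were lower in 25 of 37 cases, with a median of -0.26, which was -0.05 without KO replicate 2 and -0.08 with the meninges and fibroblast mean as covariate. At an unadjusted p under 0.05, 8 were lower (2.44% of all genes) and 1 higher (3.32%). The 8 were Epha3, Epha4, Epha5, the semaphorin receptors Plxna2, Plxna4 and Nrp1, the Slit receptor Robo2, and Sema5a. Sema5a, a transmembrane semaphorin, read 6.39, 7.41 and 7.03 in KO and 8.62, 8.43 and 7.68 in WT (difference -1.30, SE 0.339). Efna5, an ephrin-A ligand for those Eph receptors, was the gene on the higher side at 7.26, 7.82 and 6.87 in KO and 6.04, 6.19 and 6.36 in WT (difference 1.12, SE 0.257). Of 20 cadherins and protocadherins 15 were lower, and Pcdh9 (-0.74, SE 0.233) and Pcdh20 (-0.15, SE 0.0677) were among the 3 without overlap (3.74% of all genes), with Pcdh11x. Cdh13 stood at -1.03 with overlap, and was called at -1.26 in the paired fit without replicates 1. Cdh18 and Pcdh17 overlapped at 0.11 and -0.38. Among 19 glutamate receptor genes, Gria2, an AMPA receptor subunit, read 7.50, 7.01 and 7.86 in KO and 9.29, 8.14 and 8.31 in WT (difference -1.12, SE 0.353). Gria1 and Gria4 overlapped at -1.01 (SE 0.515) and -0.32 (SE 0.142), and Gria1 was called at -1.01 in the paired fit without replicates 1, and Grik4 was higher by 0.26 (SE 0.156) at signals of 4.77 to 5.39.

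Genes graded along the cortex were measured in whole neocortex, so only their overall level is known. In the rostral list 3 of 11 were higher without overlap (7.43% of all genes). These were the FGF feedback inhibitors Spry1 at 7.76, 8.56 and 7.54 in KO and 6.57, 6.78 and 7.08 in WT (difference 1.15, SE 0.293) and Spry2 (0.33, SE 0.159), and Etv4, a transcription factor downstream of FGF signals (0.29, SE 0.121). In the caudal list Efna5 and Crym were the 2 of 10 higher without overlap (7.43% of all genes). Wnt7b, a Wnt ligand of deep-layer neurons, read 9.84, 9.05 and 9.06 in KO and 10.43, 9.83 and 9.73 in WT (difference -0.68, SE 0.284), and Tenm3, a teneurin, differed by 0.57 (SE 0.307), both with overlap, and both were called in the paired fit without replicates 1, at -0.73 and 0.87. In the list of hippocampus and cortical hem, Zbtb20, a repressor of hippocampal neurons, read 6.59, 7.03 and 7.93 in KO and 8.76, 8.0 and 8.48 in WT, and its 9 probe sets were all lower. Beside Rspo1, Lef1, a mediator of Wnt signals, and Lmx1a, a hem factor, were higher without overlap at 0.57 (SE 0.189) and 0.29 (SE 0.113).

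The remaining lists are given by count. Over all genes, 7.43% were higher and 3.74% lower without overlap. Upper layer genes had a median of 0.01, with Dkk3 at 0.78 and Lhx2 at 0.21, and the groups were apart for Mdga1 (0.22) and Pou3f2 (-0.36). In the T-box family Tbx5 was the only other gene without overlap (0.12), and Tbx2 and Tbx18 both stood at 0.30. GABAergic interneuron genes overlapped in 12 of 12 cases, and were lower in 9, among them Dlx1 (-0.35), while Calb1 was at 0.27. Their summed signal was 1.27, 0.372 and 1.09 times the WT mean in KO and 0.753 to 1.41 times in WT. The median of -0.26 turned to 0.28 without KO replicate 2 and to 0.69 with the meninges and fibroblast mean as covariate. Striatal and subpallial genes overlapped in 13 of 13, with Penk at 1.14, Rarb at 0.35, Nkx2-1 at 0.16 and Ppp1r1b at -0.50. The thalamus list had a median of 0.28, which was 0.09 without KO replicate 3. Lhx9 of that list read 6.55, 7.64 and 8.56 in KO and 5.70, 6.99 and 6.37 in WT, highest in KO replicate 3. Its difference was 1.23, its probe sets ranged from 0.00 to 1.23, and it was called at 1.42 in the paired fit without replicates 1. Prkcd stood at 0.28, and in the olfactory bulb list Sall1 at 0.30. Folr1 of the choroid plexus was at 0.79. Blood vessel genes were higher in 7 of 7, with a median of 0.07 that was 0.38 without KO replicate 2, with Emcn at 0.92, Pecam1 at 0.47, Cdh5 at 0.44 and Tek at 0.05. Microglial genes were higher in 8 of 9, with a median of 0.42 that was 0.20 without KO replicate 1, with Csf1r at 0.51, C1qb at 0.57, C1qc at 0.50 and Tyrobp at 0.49. Hbb-bh1, an embryonic globin, read 8.32, 10.99 and 8.46 in KO and 8.15, 9.43 and 7.92 in WT, and was highest in replicate 2 of both genotypes, as was Hba-x. It was called at 1.05 in the paired fit without replicates 1. The red cell genes Hba-x, Alas2 and Epb42 were at 0.30, 0.10 and 0.06.

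Glial lists were mostly higher, as were 65.5% of all genes. Pdgfra, a receptor of oligodendrocyte precursors that is also made in meningeal fibroblasts, read 6.53, 8.07 and 6.58 in KO and 5.90, 5.60 and 6.42 in WT. Cnp and Mbp, 2 myelin genes, were higher without overlap at 0.42 (SE 0.204) and 0.29 (SE 0.164), and Sox10 overlapped at 0.13. Of the astrocyte genes S100b was higher without overlap (0.26), and Gja1, Aqp4 and Gfap overlapped at 0.74, 0.10 and 0.09, with Gja1 called at 1.13 in the paired fit without replicates 1. Among immediate early and stress genes, Fos was higher without overlap (0.44, SE 0.163), and Hspa1b, Egr1 and Hspa1a overlapped at 0.88, 0.47 and 0.17. The Y-linked Uty, Eif2s3y and Kdm5d overlapped at -0.62, -0.37 and -0.11.

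**Figure D4:**
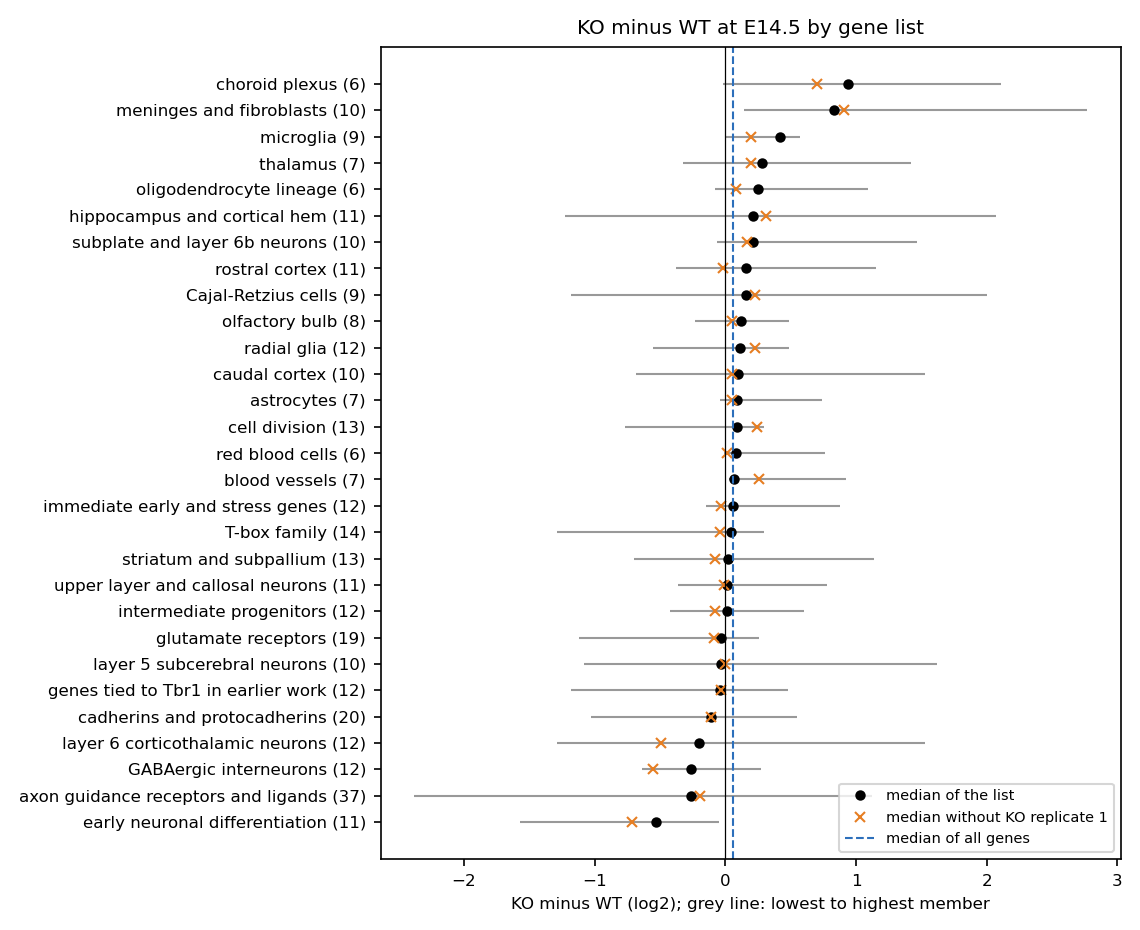
KO minus WT difference (log2, horizontal axis) at E14.5 for 29 gene lists, with the number of measured genes in brackets. Black points are medians, grey lines span the lowest to the highest member, orange crosses are medians without KO replicate 1 and the dashed line is the median of all genes (0.06), and early neuronal differentiation (-0.53) and choroid plexus (0.94) lie at the ends.

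The same contrast at P0.5 is set beside these values. The tables were normalised separately and came from different array types, so the difference between stages was not tested. Over the regions, with 4 values per genotype, 939 of 19938 genes passed as higher in KO (4.71%) and 549 as lower (2.75%). Tbr1 differed by -0.68 at P0.5 (SE 0.0631, limma adjusted p = 1.17e-05) and by -1.29 at E14.5. Sox5, Nfia and Reln fell at P0.5 by 0.60, 0.92 and 0.53, and their E14.5 differences were -1.24, -1.02 and -1.18. Mef2c and Zeb2 fell by 0.28 and 0.48 at P0.5, Wnt7b by 0.72, Neurod6 by 0.40 and Hs3st4 by 0.49, and all 5 had a lower mean at E14.5, with overlapping groups for Wnt7b and Hs3st4 over all 6 arrays. Crym and S100a10 rose at P0.5, by 0.47 and 0.40. Among P0.5-called genes also measured at E14.5, sex-linked genes left out, 61.8% of the 905 called higher were higher at E14.5, against 65.6% of the 16553 genes in both tables. Of the 503 called lower, 47.5% were lower at E14.5, against 34.4% of all genes in both tables, and 6.36% were lower without overlap, against 3.79%. Of the same genes 7.36% were higher without overlap at E14.5, against 7.53% of all genes in both tables. Of those called higher at P0.5, 6.85% were higher without overlap at E14.5, against 7.53%, and 3.98% lower, against 3.79%.

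Genes with the largest P0.5 differences mostly had small ones at E14.5. Tle4, a corepressor of layer 6 neurons, fell by 1.02 at P0.5 and read 7.17, 8.28 and 7.90 in KO and 7.92, 7.52 and 7.85 in WT at E14.5. The cell adhesion gene Cdh9 fell by 1.12 at P0.5 and differed by 0.02 at E14.5, at signals of 3.49 to 3.69. Adamts3, Arhgap29, Kitl, Txnip and Mctp1, which also fell at P0.5, stood at -0.66, -0.13, -0.59, 0.13 and -0.02 at E14.5. Sulf1, a sulfatase of heparan sulfate, fell by 1.04 at P0.5 and stood at 0.97 (SE 0.481) at E14.5, where it was called at 1.01 in the paired fit without replicates 1. Of genes that rose at P0.5, the neurofilament genes Nefm and Nefl stood at 0.88 (SE 0.489) and 1.25 (SE 0.703) at E14.5. Vwc2l, Cwc22, Tuba4a, Epha6, Neurod1, Slc4a10, Ptprn and Trhr stood at -0.07, -0.28, 0.37, 0.10, -0.12, 0.30, 0.27 and 0.14. All 18 of these genes measured at E14.5 had overlapping groups there. Of all genes in both tables, 7.53% were higher and 3.79% lower without overlap at E14.5. Mctp1 read 3.63 to 3.82, Vwc2l 3.34 to 3.68 and Epha6 3.52 to 4.04 over the E14.5 arrays. Like Cdh9 they lay near the bottom of the scale, so their small differences do not show an unchanged level.

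**Figure D5:**
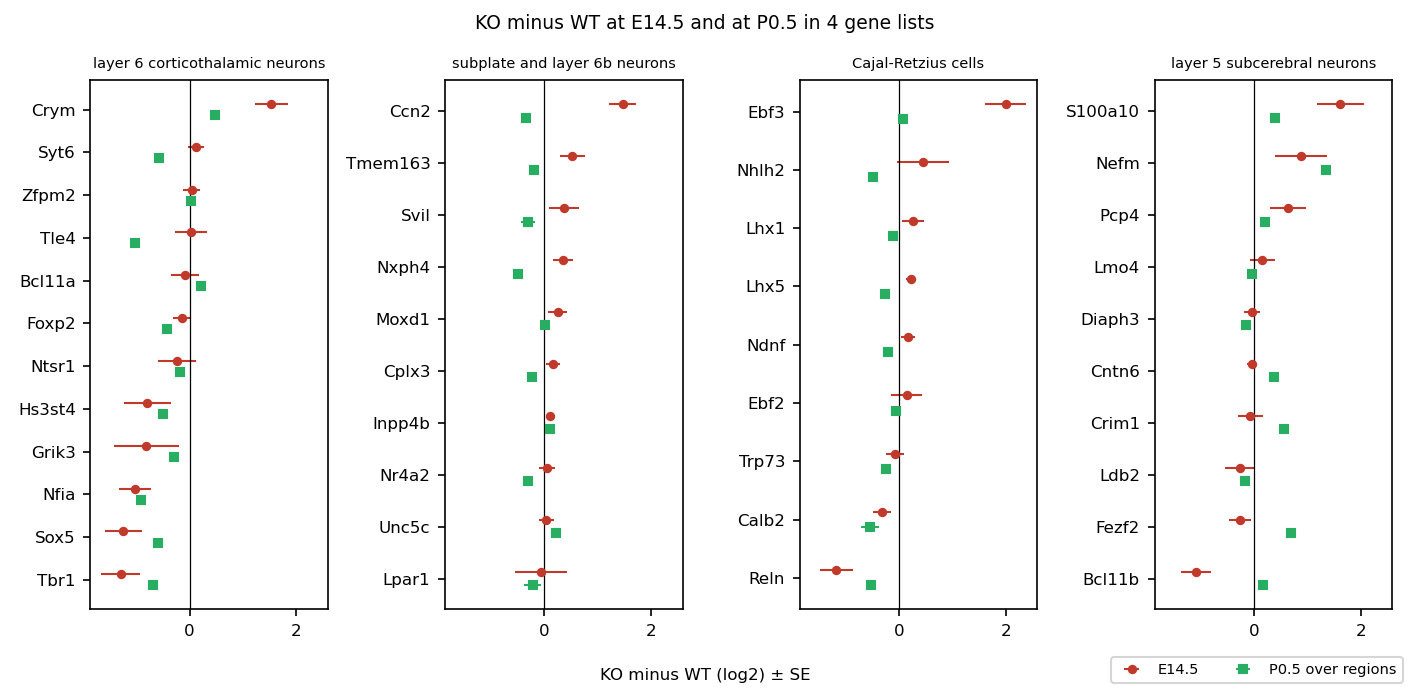
KO minus WT difference (log2, horizontal axis) with its SE for the genes of 4 lists, at E14.5 in red (3 KO and 3 WT arrays) and at P0.5 over regions in green (4 KO and 4 WT values). Sox5, Nfia and Reln lie below 0 at both stages, and Ccn2 and Bcl11b lie on opposite sides of 0.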

How the data were processed

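Values are log2 signals as deposited: the authors used Affymetrix Expression Console 1.1 with RMA, per the submitters' processing notes. The signals ran from 2.86 to 14.0, with array medians of 5.12 to 5.15. The array type in the labels' protocol is not that of the E14.5 probe set names. Symbols came from the platform annotation table, and 932 probe sets naming several genes and 9211 naming none were left out. KO and WT were fitted with limma 3.58.1 (R 4.3.3; eBayes with intensity trend, two-sided, Benjamini-Hochberg over 18194 genes, called at adjusted p under 0.05), which was tested on simulated data. With 3 against 3 arrays the smallest exact two-sided p of a single gene is 0.1. At P0.5, arrays sharing a genotype and number were first averaged over the 3 regions.

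Named genes were Tbr1; the 15 largest differences each way without overlap and at or above the median signal; the 10 smallest p with and without the replicate block; all members of the lists of layer 6, subplate, Cajal-Retzius, layer 5, intermediate progenitors and genes tied to Tbr1; up to 4 of each other list by p; and up to 10 P0.5-called genes each way. Other names were chosen after their values were seen. The members and lists were chosen with earlier results of these data known. Same-numbered KO and WT arrays deviated together (r = 0.126, 0.285 and 0.445 over genes), so the numbers were taken to pair the samples. The labels do not state such a pairing, and it was chosen from the values that the paired fits then used. In all 17 alternatives were run. The number of arrays limits the precision.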

Additional observations from a re-analysis of the deposited data

Results flagged for a closer look

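In 7 of the 193 named genes measured at both stages, sex-linked genes left out, every KO array lay to one side of WT at E14.5 and every KO value to the other side at P0.5. The same held for 117 of 16549 genes in both tables (0.707%), 64 of them higher at E14.5 and 53 lower. Part of the named genes was chosen for groups without overlap or for a small p at E14.5. That choice raises the share among named genes, so it cannot be set against the share of all genes. The difference between the stages was not tested for any of these genes, since the tables were normalised separately. Crabp1, the retinoic acid binder, stood at 2.41 at E14.5 and -0.12 at P0.5. Epha5, the ephrin-A receptor, stood at -2.38 and 0.38 (limma adjusted p = 2.55e-05 at P0.5). Ccn2, the subplate marker, stood at 1.47 and -0.35 (limma adjusted p = 0.000338 at P0.5). Lhx5, of Cajal-Retzius cells, stood at 0.22 and -0.27. Bcl11b, of layer 5 neurons, stood at -1.08 and 0.18. Ptprz1, of radial glia, stood at -0.55 and 0.46 (limma adjusted p = 6.88e-06 at P0.5). Grik4, a kainate receptor subunit, stood at 0.26 and -0.16. No E14.5 difference among the 7 passed an adjusted p of 0.05.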

How the results depend on the processing

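The count of called E14.5 genes was 0 with all 6 arrays and under 12 of the 17 alternatives. With the replicate block alone it stayed at 0, the lowest limma adjusted p was 0.547 and 1401 genes had an unadjusted p under 0.05. Blocked fits that also left out replicates 1 or added the meninges and fibroblast mean did call genes, as given below. Array weights, which gave KO replicate 1 a weight of 0.179 and KO replicate 3 a weight of 4.14, called 2 genes, and 2333 had an unadjusted p under 0.05. Over the fits that left out 1 array, 0 to 30 genes were called and 432 (without WT replicate 1) to 1495 had an unadjusted p under 0.05. Leaving out KO replicate 1 called 2 genes, the 2 of the array weights, and leaving out KO replicate 3 called 30, none shared with those. The replicate block without KO and WT replicates 1 called 185 genes, with 2159 at an unadjusted p under 0.05, and shared 15 with the fit without KO replicate 3. In that block Tbr1 stood at -1.60 (limma adjusted p = 0.000445), and its range over the fits without 1 array was -1.72 to -0.99. With every single-gene probe set fitted apart, 2208 had an unadjusted p under 0.05 and 4135 had groups that did not overlap. The P0.5 count of 1488 was 963 without KO replicate 1, 989 without KO replicate 4 and between 963 and 1494 over the fits that left out 1 value per region.

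There were 3 alternatives chosen after seeing the data: the meninges and fibroblast mean as covariate, the same within the replicate block, and the Xist level as covariate. The meninges and fibroblast mean left 156 genes at an unadjusted p under 0.05 and 0 called. Within the replicate block it left 184 and called 6 genes (Gbx2, Shox2, Syt13, Ttr, Tcf7l2 and Unc5d). That fit had 1 residual degree of freedom, and limma pooled the variance over genes almost wholly, so its p rest on that pooling. The cause of these moves was not tested. Without the dimmest 30% of genes, 753 had an unadjusted p under 0.05. With probe sets averaged per gene, the sign turned for Btg2 0.04, Grin2b -0.13, Kcnd2 -0.04, Lpar1 0.22, Neurod4 0.01, Nr4a2 -0.04, Trp73 0.03 and Zfpm2 -0.18. With array weights, the sign turned for Alas2 -0.34, Arhgap29 0.10, Auts2 0.14, Cdh8 0.11, Cdh9 -0.02, Crim1 0.09, Dlx1 0.17, Ebf2 -0.02, Epb42 -0.02, Foxp2 0.04, Grik3 0.00, Hba-x -0.18, Hes6 -0.11, Lpar1 0.10, Mfng -0.24, Neurog1 -0.25, Nr4a2 -0.03, Sox10 -0.07 and Xist -1.86. In the replicate block without replicates 1, the sign turned for Aqp4 -0.02, Arhgap29 0.33, Auts2 0.05, Btg2 0.13, Crim1 0.30, Diaph3 0.02, Eomes 0.04, Epb42 -0.24, Epha6 -0.11, Gfap -0.01, Hes6 -0.03, Kcnd2 -0.14, Lmo4 -0.06, Lpar1 0.57, Mfng -0.04, Mki67 0.08, Nr4a2 -0.03, Sox10 -0.13, Syt6 -0.01, Uty 0.05, Xist -0.47 and Zfpm2 -0.01. With the meninges and fibroblast mean as covariate, the sign turned for Alas2 -0.74, Aurka -0.17, Auts2 0.40, Bcl11a 0.36, C1qc -0.00, Cdh5 -0.09, Cdh8 0.25, Cdh9 -0.10, Cntn6 0.03, Col26a1 -0.04, Col5a2 -0.22, Dlx1 0.69, Ebf2 -0.57, Emx2 -0.09, Foxp2 0.04, Gad2 0.07, Gadd45g 0.30, Gja1 -0.06, Gjb2 -0.13, Gria1 0.38, Grik3 1.04, Hba-x -0.93, Hbb-bh1 -1.16, Kcnd2 -0.05, Ldb2 0.02, Mfng -0.16, Ndnf -0.18, Neurod1 0.16, Neurog1 -0.11, Ntsr1 0.22, Pcolce -0.00, Pdgfra -0.24, Sall1 -0.04, Sst 1.74, Sstr2 0.13, Tbx18 -0.40, Tek -0.22, Tle4 -0.28, Txnip -0.01, Vwc2l 0.14 and Xist -2.69. In the replicate block with that covariate, the sign turned for Alas2 -0.68, Aqp4 -0.01, Auts2 0.25, Bcl11a 0.27, Btg2 0.12, C1qc -0.13, Cdh5 -0.05, Cdh8 0.07, Cdh9 -0.16, Cntn6 0.16, Col26a1 -0.09, Cplx3 -0.22, Diaph3 0.01, Ebf2 -0.21, Epb42 -0.10, Gadd45g 0.60, Gjb2 -0.26, Hba-x -0.25, Kcnd2 -0.17, Ndnf -0.21, Nes 0.02, Neurod1 0.37, Neurod4 0.01, Nkx2-1 -0.01, Pdgfra -0.59, Rarb -0.61, Sst 1.23, Svil -0.33, Tbx18 -0.33, Tek -0.37, Tle4 -0.43, Txnip -0.04, Tyrobp -0.10 and Vwc2l 0.26. With the Xist level as covariate, the sign turned for Auts2 0.03, Cdh8 0.01, Hes6 -0.00, Mfng -0.06, Neurog1 -0.03 and Xist -0.00. Leaving out each array in turn gave both signs, as lowest and highest difference, for Alas2 -0.09 to 0.40, Arhgap29 -0.45 to 0.26, Auts2 -0.17 to 0.10, Bcl11a -0.35 to 0.18, Btg2 -0.26 to 0.09, Cdh8 -0.12 to 0.06, Cdh9 -0.03 to 0.06, Cntn6 -0.11 to 0.01, Cntnap2 -0.49 to 0.10, Crim1 -0.24 to 0.15, Diaph3 -0.15 to 0.08, Dlx1 -0.65 to 0.05, Ebf2 -0.21 to 0.39, Epb42 -0.14 to 0.21, Epha6 -0.01 to 0.23, Gadd45g -0.16 to 0.10, Gfap -0.01 to 0.19, Hba-x -0.21 to 0.60, Hbb-bh1 -0.11 to 1.22, Hes6 -0.11 to 0.13, Insm1 -0.13 to 0.34, Kcnd2 -0.16 to 0.17, Kdm5d -0.19 to 0.00, Lmo4 -0.02 to 0.39, Lpar1 -0.56 to 0.50, Mctp1 -0.06 to 0.03, Mfng -0.13 to 0.14, Neurod1 -0.29 to 0.05, Neurog1 -0.30 to 0.36, Neurog2 -0.09 to 0.15, Nr4a2 -0.01 to 0.10, Ntsr1 -0.63 to 0.11, Sox10 -0.09 to 0.25, Sst -1.38 to 0.48, Syt6 -0.02 to 0.23, Tbx18 -0.04 to 0.57, Tek -0.09 to 0.17, Tle4 -0.23 to 0.33, Trp73 -0.18 to 0.00, Txnip -0.04 to 0.42, Unc5c -0.05 to 0.12, Vwc2l -0.12 to 0.01 and Zfpm2 -0.02 to 0.12.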
